A study of Mus musculus with 2 samples.

Results

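A total of 6507 transcript clusters carried no gene symbol in the platform annotation and had a mean of 5 or more on the log2 scale over the 2 arrays of the study. A transcript cluster is 1 row of the expression table, a group of probes that the array design places together on a stretch of the genome. The 6507 clusters, called members here, were 19.6% of the 33206 clusters without a symbol and 9.87% of all 65956 clusters. They were chosen by their signal, so their levels are a description. A row without a symbol is unnamed in the annotation used here, which does not mean that it lies outside genes.

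RNA was measured from cultured stromal cells of the mouse inguinal fat pad, the fibroblast-like cells that grow out of fat tissue, with 1 wild-type (WT) sample and 1 Wisp1 KO sample on 1 array each. Both came from C57BL/6J mice of 6 to 10 weeks, and the cells were grown in DMEM with 15% FBS. Per the labels' protocols, Wisp1 exons 1 to 5 on chromosome 15 were flanked by flox sites and the mice were mated with a mouse labelled Cre-neo, which gave offspring with a global knockout. The labels do not say how many mice gave each sample, what drives the Cre, whether a selection cassette remains, or whether the wild type carries any of these alleles. Since each group is a single array, nothing here is replicated or tested, and every difference below compares these 2 arrays. In bulk RNA, a change in the number of cells of a type and a change of RNA per cell cannot be told apart.

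Expression arrays of this kind carry probes for many transcribed stretches that have no gene name. Such stretches can be long noncoding RNAs, which are transcripts that code for no protein, parts of introns or of extended untranslated regions of neighbouring genes, antisense transcripts, small structured RNAs, or repeats found at many places in the genome. No sequence, strand or position of the members was used here, so their kind was not determined. The row identifier gives the chromosome, and the order of the rows gives the neighbours. Among 17200 pairs of single-symbol rows next to each other in the order of the table, 98.9% were on the same strand and 99.4% were in rising order of gene start in RefSeq GRCm38.p6. Table order therefore follows the chromosome within a strand for named genes. How far apart 2 rows lie, and whether a member lies inside the gene before it, was not analysed here.

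Wisp1, the gene removed by design, went from 7.79 in wild type to 5.40 in the knockout, a difference of -2.39 on the log2 scale in the direction of its label. Of 15 markers of adipose stromal cells, 13 were matched as single-symbol rows and 11 of these had a mean of 5 or more. Nt5e (3.27) and Dpp4 (2.79) were below it, and Pdgfra and Ly6a had no single-symbol row. Among markers of other cells, 5 of 6 pericyte and smooth muscle genes had a mean of 5 or more, with 4 of 6 lower in the knockout array and a median difference of -0.25, and most genes of the other lists were dimmer. The macrophage list of 10 genes had 3 at 5 or more, with 7 higher and 2 lower in the knockout array, and summed log2 values of 44.9 (wild type) and 48.7 (knockout). The largest difference in that list was that of Lyz2, the macrophage lysozyme, at 1.29, while Ptprc and Adgre1, the defining leukocyte and macrophage markers, had means of 2.86 and 3.29. The sums were 24.0 and 25.6 for 6 endothelial genes, 44.7 and 43.5 for 6 pericyte and smooth muscle genes, 28.0 and 26.1 for 6 adipocyte genes, 16.9 and 16.4 for 4 epithelial genes, and 10.8 and 10.96 for 3 lymphocyte genes. The part of these cell types in the differences of the members was not tested. Xist was at 3.25 and 3.18 and the Y-linked genes Kdm5d, Uty and Eif2s3y had means of 5.59 to 6.22, so the 2 arrays were alike in these markers of sex.

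The members as a group differed little between the arrays. The median difference, knockout minus wild type, was 0.03 with quartiles at -0.09 and 0.17, beside a median of 0 over all clusters and of 0.03 over the 13749 clusters with 1 symbol at the same level or above. The same median was -0.002 after quantile normalization and 0.002 after loess centring, so its sign depended on the scaling. Of the members, 3636 were higher and 2798 lower in the knockout array by any amount, which is 55.9% and 43.0%. Beside that, 45.7% of all clusters were higher and 49.8% lower, and of all clusters with a mean of 5 or more 57.3% were higher and 40.5% lower. After quantile normalization the share higher was 49.0% for members and 48.8% for clusters with 1 symbol. Their levels on the 2 arrays had a Pearson r of 0.991 over these 6507 rows, which are not independent and share their arrays.

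Differences of 2-fold or more were found in 30 members, 23 higher and 7 lower in the knockout array. These are 0.353% and 0.108% of the members. Over all clusters 0.0682% were 2-fold or more higher and 0.0591% lower, and over all clusters with a mean of 5 or more the shares were 0.161% and 0.109%. The share of members that were 2-fold higher was above both backgrounds, and the share lower was near that of clusters with a mean of 5 or more. Those clusters include the members and were brighter, with a median level of 6.61 beside 6.14 for members. Among clusters with 1 symbol at this level, 0.08% were higher and 0.102% lower. The excess of higher members held 8 rows from a single place, the start of chromosome 9, and counting those once leaves 16. At 1.5-fold, 117 members were higher and 54 lower, which is 1.80% and 0.830% of the members. The background was 0.597% and 0.432% of all clusters, and 1.06% and 0.581% of those with a mean of 5 or more. Of the 30 members past 2-fold, 9 had a value below 5 on one array and 10 had a mean between 5 and 6. With 5 asked for on both arrays, 17 members were 2-fold or more higher and 4 lower, and no background was counted under that rule.

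**Figure D1:**
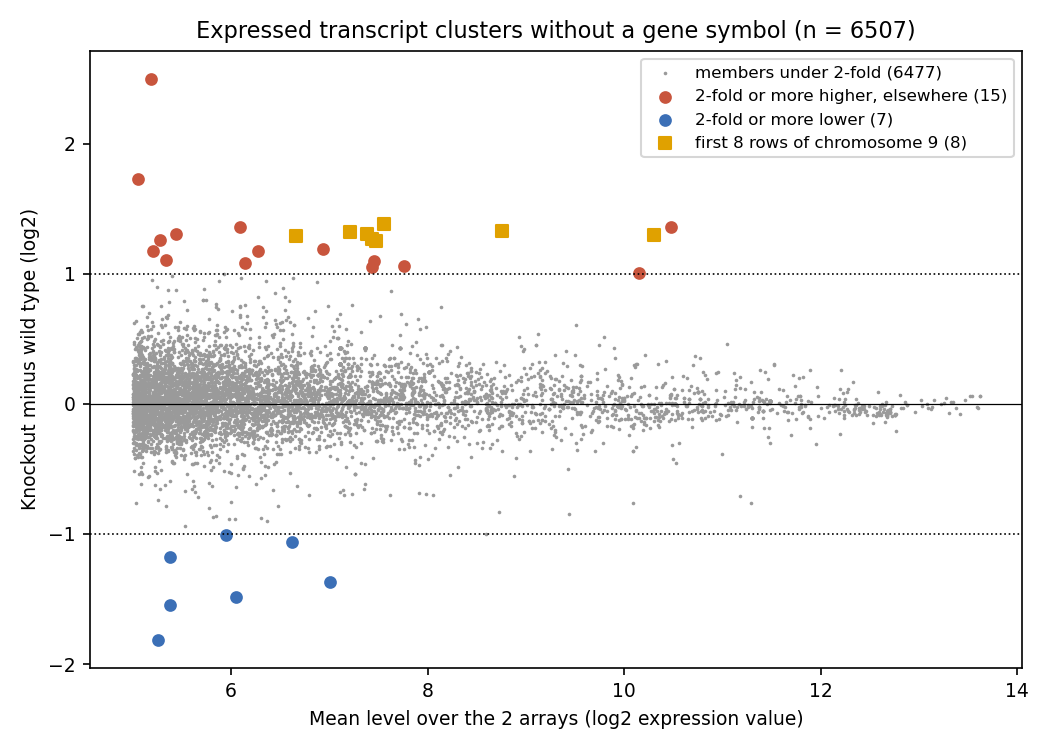
Difference between the arrays (knockout minus wild type, log2, vertical axis) against the mean level over the 2 arrays (log2 expression value, horizontal axis) for the 6507 members, 1 point each. Red and blue points are members 2-fold or more higher (15 outside chromosome 9) or lower (7), yellow squares are the first 8 rows of chromosome 9, and dotted lines mark 2-fold. The points narrow towards high levels, and 3 of the 30 members past 2-fold lie above a level of 10.

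The member with the largest difference lay beside the deleted gene. In wild type and knockout respectively, TC1500000492 on chromosome 15 went from 3.94 to 6.44, 5.65-fold higher. It stands 3 rows after Wisp1 in the table. The row directly after Wisp1 is also a member, TC1500000490, which was at 5.43 and 6.42, a difference of 1.00 that stays just under 2-fold. Between these 2 members stands Gm2895, a predicted gene, at 4.13 and 6.79, a difference of 2.65. All 3 rows that follow Wisp1 were therefore higher in the knockout array while Wisp1 was lower. The next rows, TC1500000493 to TC1500000495, were below 5 on both arrays with differences of -0.08, 0.18 and 0.33, and 1700012I11Rik after them differed by 0.02. Tg, the thyroglobulin gene on the other side of Wisp1, was at 4.22 and 4.14. In TC1500000492 and Gm2895 the wild-type value lay in the dim range, where RMA compresses differences.

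A block of 8 neighbouring members opened chromosome 9. TC0900000001 to TC0900000008 are the first 8 rows of that chromosome, and each was higher in the knockout array by between 1.25 and 1.39. Their wild-type values were 8.10, 6.02, 9.65, 6.74, 6.55, 6.85, 6.80 and 6.87, and their knockout values in the same order were 9.42, 7.31, 10.95, 8.04, 7.87, 8.10, 8.07 and 8.25. The levels thus covered more than 3 log2 units while the difference was nearly the same in all 8. No 2 of these rows shared both of their values. The ninth row was dim, at 2.74 and 3.45, the tenth and eleventh differed by 0 and 0.05, and the twelfth, again a member, differed by 0.22. The first named gene, Alkbh8, which encodes an enzyme that modifies transfer RNA, was at 5.92 and 5.93. The block is the largest set of members past 2-fold on any chromosome, and whether its 8 rows measure 1 transcript was not analysed here.

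Among the other members past 2-fold, 4 stood next to a gene of the extracellular matrix, the network of secreted proteins that stromal cells lay down, a grouping made after their values were seen. TC1300002393, directly after Vcan, went from 5.41 to 6.77, and the row after it, TC1300002394, was at 4.80 and 5.70. Vcan, which encodes the large proteoglycan versican, was at 8.82 and 9.62. The gene and both members were therefore higher in the knockout array, by 1.36 and 0.90 in the members and 0.80 in the gene. TC1600000747 directly followed Abi3bp, a matrix protein gene, and was among the brightest of the 30, at 9.65 and 10.66. Abi3bp itself was at 9.65 and 10.42, and the gene after the member, Gm15693, was lower by 0.68. TC0100002545 directly followed Fn1, the fibronectin gene, and was at 7.23 and 8.29, beside 12.40 and 12.65 for Fn1. TC1000002404, directly before Col6a2, which encodes a chain of collagen VI, was at 6.91 and 7.96, beside 8.48 and 9.09 for Col6a2. At all 4 places the gene and the member were higher on the same array. The places were picked for a member past 2-fold, so no comparison of the size of the 2 differences was made.

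The remaining higher members had neighbours of other kinds. TC1500001185 and TC1500001186, the rows 2 and 3 places after Slc1a3, a glutamate transporter gene, were at 5.69 and 6.86 and at 5.60 and 6.68, and Slc1a3 was at 5.96 and 6.57. TC1500001114 lay between Hoxc12 and Hoxc11, homeobox genes that mark position along the body axis, and was at 4.19 and 5.92, 3.31-fold higher. Hoxc12 differed by 0.54 and Hoxc11 by 0.22, and the dim row before the member, TC1500001113, by 0.58. TC0200004196 was the brightest of the 30, at 9.79 and 11.16. The members on both sides of it differed by 0.25 and 0.18, so the difference of 1.36 was that of a single row. TC0800002505, after Tmem184c, was at 6.34 and 7.53, and TC1400001514, between Gm9637 and 1700110I01Rik, was at 6.91 and 8.01. The named genes on both sides of these last rows differed by between -0.11 and 0.06. The other 4 higher members had a wild-type value below 5. These were TC1000001963 (4.62 and 5.79), after Rnf217, a ubiquitin ligase gene, TC0300001199 (4.79 and 5.90), after Frrs1, TC1200000733 (4.65 and 5.91), between Rad51b and Exd2, and TC1000000988 (4.79 and 6.09).

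Of the 7 lower members, 1 followed a gene that was itself far lower. TC0300002563 went from 6.15 to 4.60 and is the second row after Hsd3b6, which encodes a steroid dehydrogenase and was at 9.90 and 6.96. Hsd3b6 had the lowest difference of all clusters, -2.94, and the other rows around it, Hsd3b2, Hsd3b3 and Hsd3b1 included, were below 4 on both arrays. The most negative member was TC0500000239, at 6.16 and 4.35. It stood before Gm5067, which differed by -0.13. Further rows of the same stretch of chromosome 5 were lower too, TC0500000241 at 6.00 and 5.06 and TC0500000244, which is no member, at 5.25 and 3.47, while rows between them differed by as little as -0.11. TC0300001032 was at 7.15 and 6.09, the member before it, TC0300001031, was at 9.86 and 9.01, and Tspan2, a tetraspanin gene 3 rows further on, was at 6.52 and 5.69. These 3 stretches held more than 1 row that was lower in the knockout array.

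The other 4 lower members stood more alone. TC1700000856 was at 6.79 and 5.31, while the row directly after it, TC1700000857, which was too dim to be a member, differed by 1.28 in the other direction. TC0900001109 was at 7.69 and 6.32, between 4930554C24Rik and Gm25125, which differed by 0.08 and -0.23. TC1000000234 was at 5.97 and 4.79, and Arhgap18, 6 rows on, was higher by 0.48. TC1000000941 was at 6.45 and 5.45. The last of these opened a stretch of 67 rows without a symbol between D10Wsu102e and Washc4 on chromosome 10, of which 29 were members. In that stretch 2 members were 1.5-fold or more higher and 5 were 1.5-fold or more lower, with differences from -1.01 in TC1000000941 to 1.31 in TC1000000988. The 2 flanking genes differed by 0.05 and 0.08, and the median of the 29 members was -0.02. The rows of this stretch thus differed in both directions with no common shift.

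**Figure D2:**
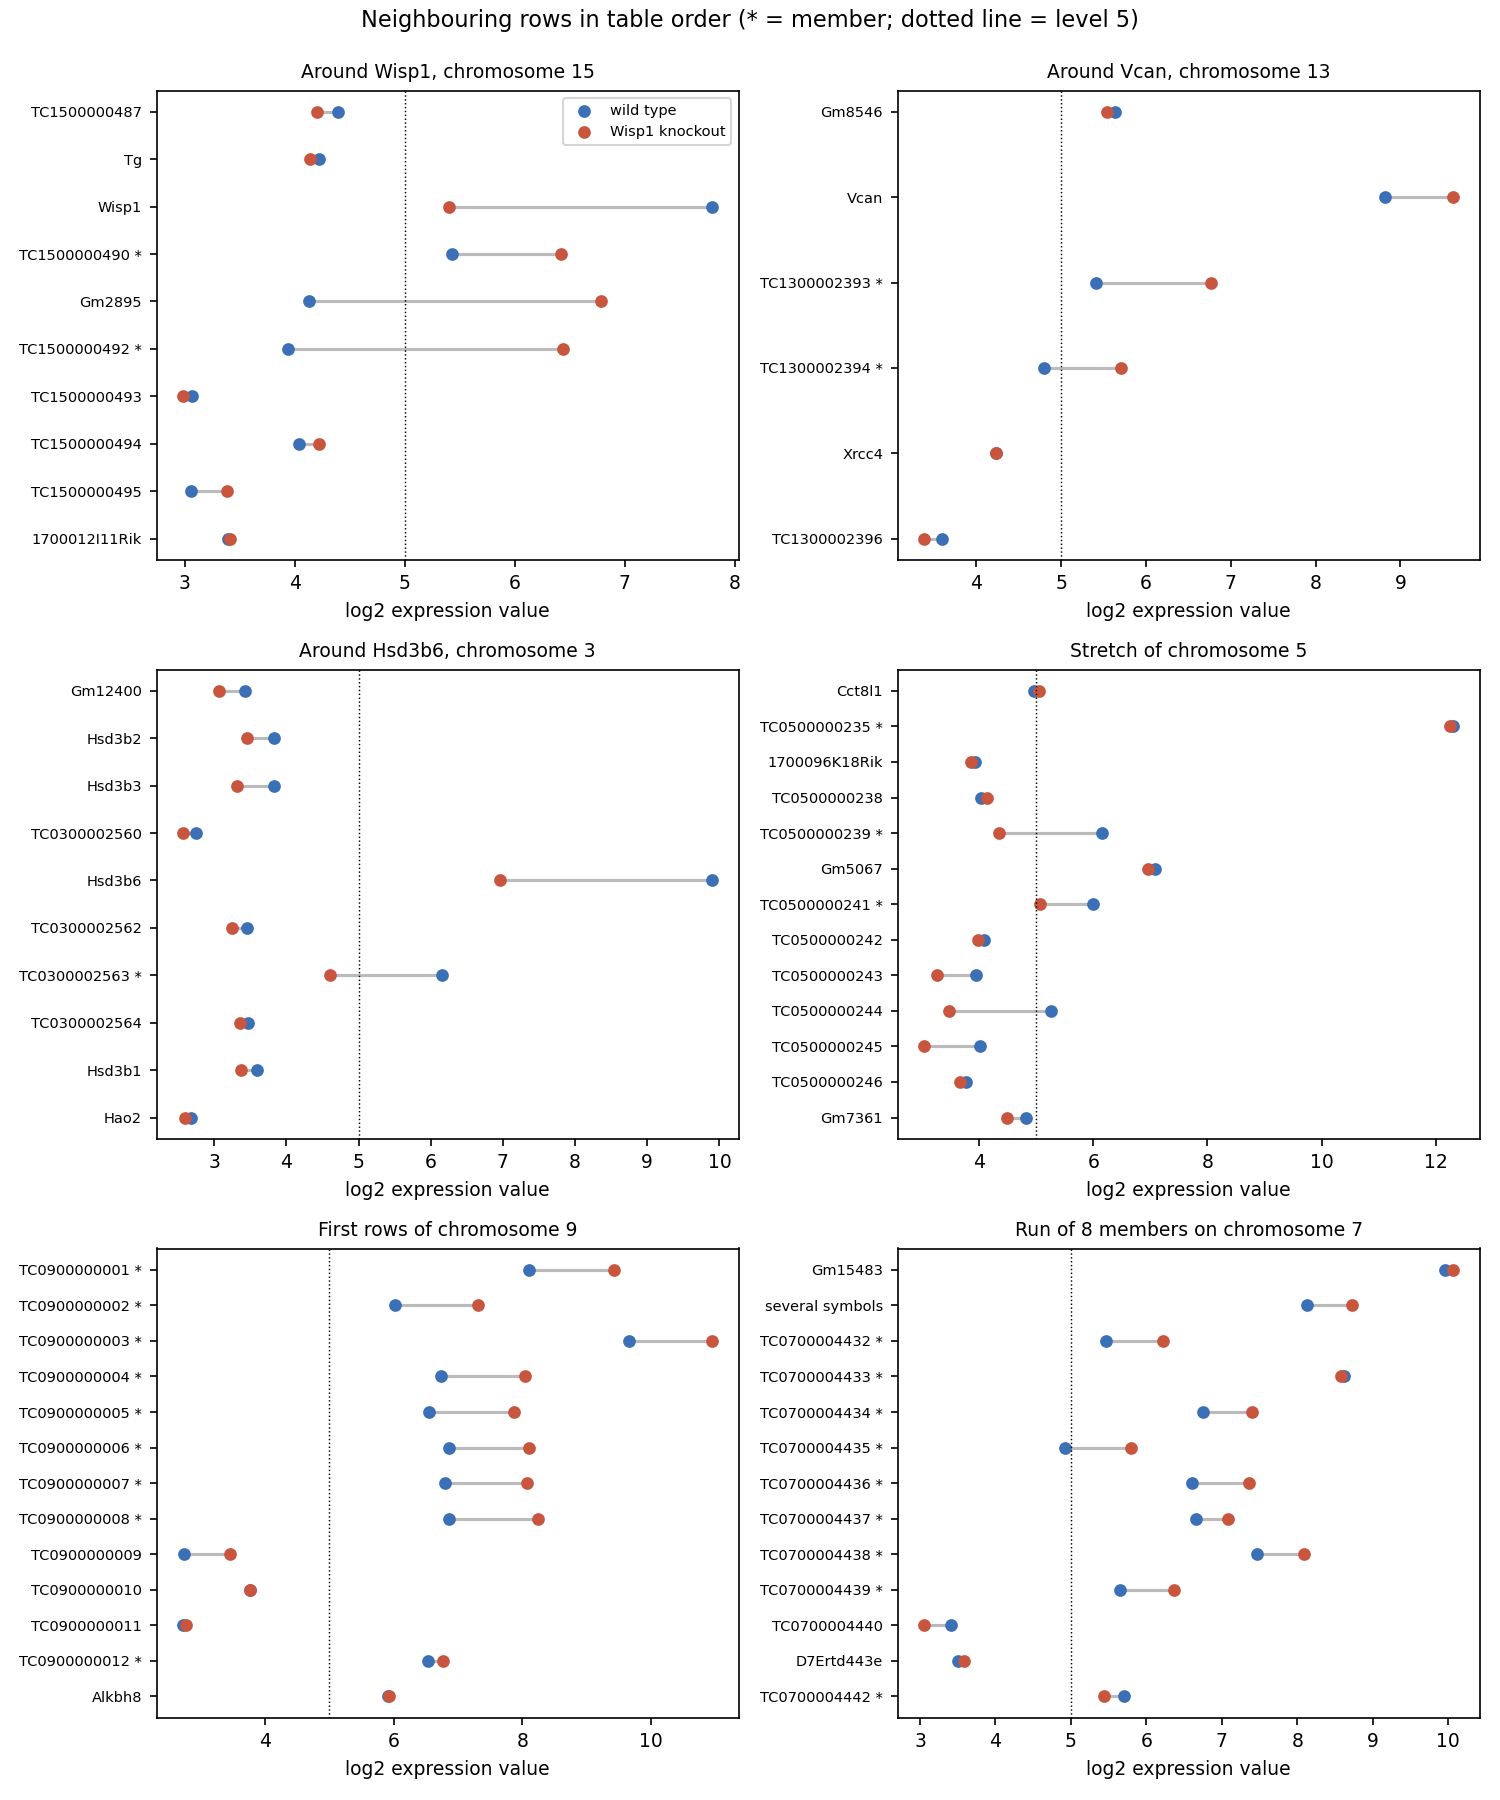
Log2 expression value in wild type (blue) and in the Wisp1 knockout (red) of neighbouring rows in table order at 6 places, 1 row per line, with members marked by an asterisk and the level of 5 by a dotted line. At the Wisp1 place the gene was lower and the 3 rows after it higher in the knockout, around Hsd3b6 the gene and a member were lower, and on chromosome 9 the first 8 rows were higher by 1.25 to 1.39.

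Differences of members were compared with those of the nearest named genes in the table. Among the 171 members past 1.5-fold, 24 had a flanking gene with 1 symbol that was past 1.5-fold in the same direction. The gene was the previous one for 19 members (11.1%) and the next one for 5 (2.92%), and it was past 1.5-fold in the opposite direction for 2 and 2. Of all clusters with 1 symbol and a mean of 5 or more, 0.764% were 1.5-fold or more higher and 0.465% lower. The count of 24 was the same with flanking genes limited to that level. How often members under 1.5-fold had such a flanking gene was not counted. Over all members whose flanking gene had a mean of 5 or more, the difference of the member and that of the previous gene had a Pearson r of 0.29 and a Spearman rho of 0.21 (n = 3910 members beside 2632 genes). For the next gene the values were 0.11 and 0.06 (n = 3378 beside 2382 genes). Without rows and genes past 2-fold, r was 0.28 and 0.08. These are descriptions across rows that share both arrays, and members next to the same gene share that gene's value. Within a strand the previous row of the table is the one with the lower start for named genes. The sign was the same for 56.1% of members and their previous gene and for 51.0% of members and their next gene.

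**Figure D3:**
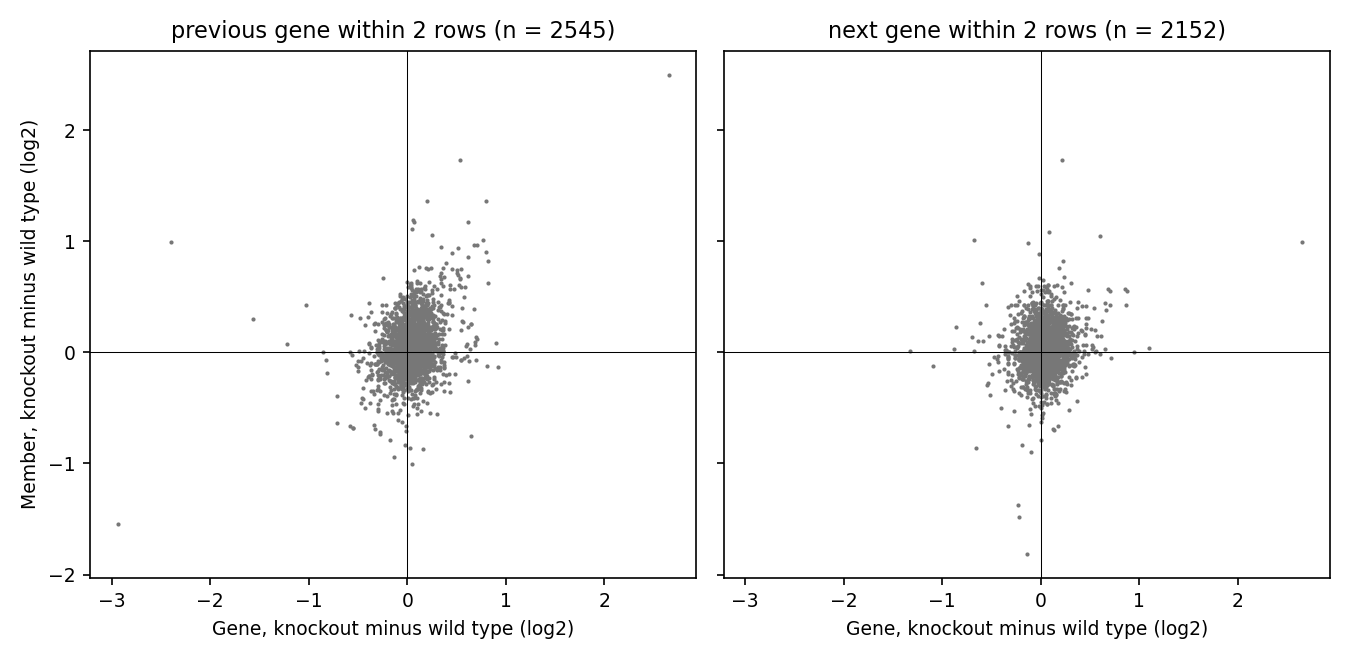
Difference of each member (knockout minus wild type, log2, vertical axis) against the difference of the named gene before it (left, n = 2545) or after it (right, n = 2152) in the table, for genes with a mean of 5 or more no more than 2 rows away. Points to the left form a slanted cloud with a Pearson r of 0.32, and those to the right an almost round one with r of 0.14.

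Of the 13 genes before these 19 members, 11 were higher and 2 lower in the knockout array. They were named after their values were seen, apart from Vcan, Abi3bp, Slc1a3, Ncam1, Gm2895 and Hsd3b6. Ncam1, a cell adhesion gene, was followed by 3 such members (0.67 to 0.88, gene 0.62). Fbn2, the fibrillin 2 gene, was followed by 2 (0.62 and 0.82, gene 0.82), and so was Pcsk5, a proprotein convertase gene (0.95 and 0.98, gene 0.71). Single members followed Acvr2a, an activin receptor gene (0.97, gene 0.71), Adamts6, a metalloprotease gene (0.97, gene 0.68), Plod2, a gene of collagen crosslinking (0.69, gene 0.62), and Fam20a (0.59, gene 0.59). Besides Hsd3b6, the 1 lower gene of this kind was Galnt18, which encodes a sugar transferase (-0.71), followed by a member at -0.64. A gene with a large difference was not always followed by members that shared it. Gucy1a2, a guanylate cyclase gene at -0.58, was followed by 4 members with a median of 0.24, and Chsy1, a chondroitin synthase gene at 0.55, by 3 with a median of -0.06. The members after Gucy1a2 include a row at 6.96 and 7.27, a pair of values that 63 members share.

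Genes with a mean of 5 or more that were followed by at least 3 members before the next row with a symbol numbered 256, with 1032 members after them. The difference of the gene and the median difference of the members after it had a Pearson r of 0.48 and a Spearman rho of 0.39 over these 256 places, and the sign was shared at 158. Where the gene differed by 0.5 or more in either direction, the sign was shared at 8 of 12. Setbp1, a gene for a nuclear protein that binds SET, was at 8.22 and 8.66 and all 7 members after it were higher, by 0.26 to 0.61. Bnc2, a zinc finger gene, was at 6.83 and 7.38 and all 6 members after it were higher, by 0.20 to 0.82. Tgfbr2, a receptor for transforming growth factor beta, was at 8.29 and 8.80, and the 3 members after it were higher by 0.23 to 0.74. These 3 genes were chosen after their values were seen.

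Members were a larger share of the clusters without a symbol directly after a member than of those after any row. Of the clusters without a symbol directly after a member, 34.5% were members themselves, beside 19.6% of those after any row. The share was 14.8% after a dim cluster without a symbol, and 25.3% after a bright and 16.7% after a dim cluster with 1 symbol. In table order the members formed 5240 runs, of which 4367 were single rows (67.1% of members). Runs of 2 or more numbered 873 and held 2140 members (32.9%), and runs of 3 or more numbered 232 and held 858. A run of 3 or more was directly preceded by a row with 1 symbol in 125 cases. The median difference of a run of 3 or more was above 0 in 148 and below 0 in 83, and these counts were 126 and 106 after quantile normalization. All members differed upward in 68 of these runs and downward in 23, which became 59 and 35 after quantile normalization. Rows that carried the same pair of values as other rows were each counted in these runs. In the run TC0100001325 to TC0100001327, for example, all 3 rows were at 7.90 and 8.14. Medians of 1.5-fold or more were found in 6 runs higher and 1 run lower, under each of the scalings.

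The longest runs differed little between the arrays. The longest held 13 members, TC1400001254 to TC1400001266, directly after Gpc6, a heparan sulfate proteoglycan gene, with wild-type values of 5.49 to 7.05 and a median difference of -0.03. A run of 9, TC1100000443 to TC1100000451, followed Ebf1, a transcription factor of adipocyte and B cell development, with wild-type values of 5.32 to 8.56 and a median of 0.03, beside -0.01 for Ebf1. Another run of 9, TC0500000561 to TC0500000569, followed Pcdh7, a protocadherin gene. Pcdh7 differed by -0.27, and 8 of the 9 members were lower, with a median of -0.09 and a lowest value of -0.74.

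The runs with the largest medians were higher in the knockout array. After the block on chromosome 9 came the run TC0900002255 to TC0900002258, which directly followed Ncam1. Its first row differed by -0.26 and the other 3 by 0.85, 0.88 and 0.67, with a median of 0.76. TC0800002350 to TC0800002353, the next by size, directly followed Csgalnact1, which encodes an enzyme that starts chondroitin sulfate chains. The 4 members went from 6.40 to 7.34, from 6.76 to 7.45, from 5.99 to 6.65 and from 5.95 to 6.69, and Csgalnact1 went from 8.01 to 8.52. Runs of similar size, chosen after their values were seen, were TC0700004432 to TC0700004439 on chromosome 7 (8 members, 7 of them higher, median 0.68), directly after a row with several symbols that went from 8.12 to 8.73, and TC0400002813 to TC0400002816 (4 members, median 0.67), directly after Tnc, the tenascin C gene, at 10.27 and 10.61.

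Runs that were lower were fewer. The run with the lowest median, also picked with its values known, was TC0200000650 to TC0200000652 on chromosome 2, at -0.61, whose last 2 members went from 7.68 to 7.06 and from 6.75 to 5.87. TC1900001485 to TC1900001487, directly after Pdlim1, a cytoskeletal adaptor gene at -0.28, had differences of -0.43, -0.72 and -0.50. All 6 members of TC1500001631 to TC1500001636 were lower, with differences from -0.51 to -0.19 and a median of -0.43, directly after Asap1, a regulator of membrane traffic at -0.30. In both of these last places the members and the gene before them were lower in the knockout array.

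By chromosome, the 19 autosomes and the X chromosome held between 179 members (chromosome 19) and 511 (chromosome 4). The share of clusters without a symbol that were members ran from 15.2% on chromosome 14 to 24.6% on chromosome 4. Their median difference ran from 0.00 on chromosome 2 to 0.08 on the X chromosome, beside 0.02 to 0.06 for clusters with 1 symbol at the same level. Of 22 chromosomes, 21 had a median above 0, but 8 did after quantile normalization and 11 after loess centring, so these small medians had no fixed sign. The median of the X chromosome stayed above 0, at 0.04 and 0.05, under these scalings. It was not alone in this, since that of the Y chromosome was at 0.086 and 0.085. Values shared between rows were not counted once in these medians. Members past 2-fold lay on 13 chromosomes, with 8 higher and 1 lower on chromosome 9, 3 higher and 2 lower on chromosome 10, and 4 higher on chromosome 15.

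**Figure D4:**
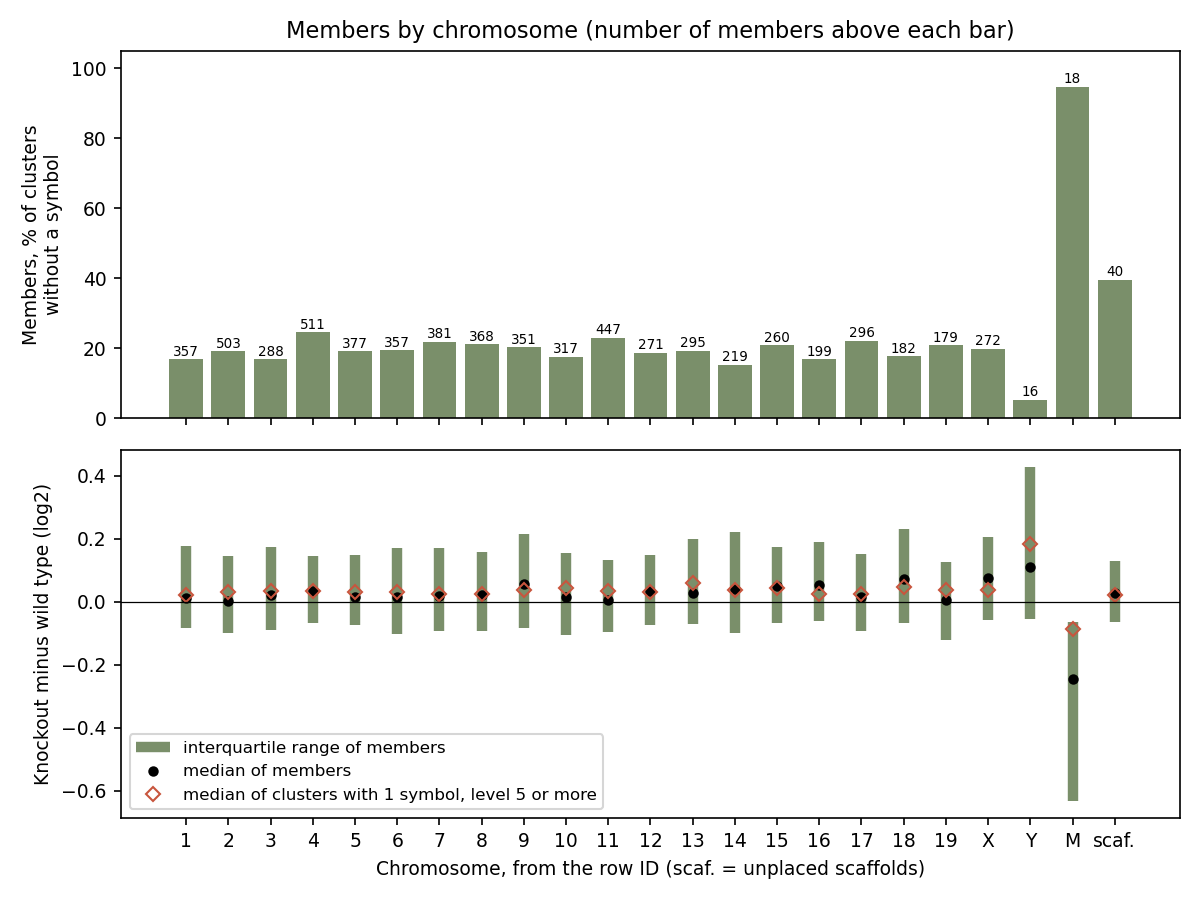
Upper panel, members as a percentage of the clusters without a symbol of each chromosome, with their number above the bar. Lower panel, median (black) and interquartile range (green) of the difference between the arrays (knockout minus wild type, log2) of the members, with the median of clusters with 1 symbol at a level of 5 or more as red diamonds. The mitochondrial chromosome stands apart, with 94.7% members and a median of -0.24.

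The mitochondrial chromosome was the exception. Of its 19 clusters without a symbol, 18 were members (94.7%), and 16 of them were lower in the knockout array, with a median of -0.24 and differences from -0.998 to 0.43. The count of lower members was also 16 after quantile normalization and after loess centring. The 11 rows of the chromosome with a symbol, which include the ribosomal RNA gene mt-Rnr1 and the respiratory chain genes ND2, COX1 and ND3, had a median of -0.11 and differences from -0.18 to 0.20, and 9 of them were lower too. The median of the unnamed rows was thus further below 0 than that of the named ones. The 3 members with the lowest differences outside the second block of rows were TC0M00000014 (9.09 and 8.09), TC0M00000001 (6.81 and 5.91) and TC0M00000010 (10.76 and 10.30). In the second block, rows 17 to 30, which holds ND6 (10.56 and 10.43), TC0M00000020, TC0M00000021 and TC0M00000022 are direct neighbours and differed by -0.69, -0.70 and -0.76. The same block also held the 2 higher members, TC0M00000017 at 0.43 and TC0M00000025 at 0.04.

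The Y chromosome had the lowest share, 16 members of 300 clusters without a symbol (5.33%), and 11 of the 16 were higher in the knockout array. Of these, 4 members carried identical values of 6.90 and 7.32, and 2 further pairs were identical within the pair, at 5.94 and 6.02 and at 5.31 and 6.11. Distinct measurements on the Y chromosome therefore numbered fewer than its rows. Some of these values were also not particular to it. The pair of 6.90 and 7.32 was carried by 30 members on 14 chromosomes, and that of 5.94 and 6.02 by 20 members on 13. TC0Y00000018 shared its values with a member of chromosome 3, and TC0Y00000222 with a member of the X chromosome. Unplaced scaffolds gave 40 members of 101 clusters without a symbol, with a median of 0.03.

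By level, many members lay near the limit of 5. The median of their mean was 6.14, and 2967 of them (45.6%) lay between 5 and 6. The level of a row also depends on its probes, so the bins sort rows by signal and do not rank their RNA. The members just inside the limit were TC0700001819, TC0500001372 and TC0500001196 with means of 5.0001, 5.0004 and 5.0006, and the rows just outside it were TC0500001520, TC0200002229 and TC1500001059 with means of 4.9998, 4.9997 and 4.9997. Between 5 and 6 the interquartile range of the difference was 0.274 for members and 0.173 for clusters with 1 symbol, and between 6 and 7 it was 0.273 and 0.170. Above 10 the order was the other way, with 0.139 and 0.243 from 10 to 11, 0.0866 and 0.238 from 11 to 12, and 0.0660 and 0.347 at 12 or more. Between 5 and 7 the middle range of the differences was thus wider for members than for named genes in the same bins. Above 10 it was narrower. With each pair of values counted once, the ranges of members in the 3 bins above 10 were 0.158, 0.111 and 0.0666. Repeated values weigh on the named side too. From 10 to 11 the lower quartile of named rows was -0.1137, the difference of a group of 50 rows with the same values. Named rows were not counted once, so the narrower range of bright members was not separated from such repeats. Past 2-fold were 3 of 230 members from 10 to 11 and 0 of 530 clusters with 1 symbol. These 3 include TC0900000003, a row of the block on chromosome 9. From 11 to 12 the counts were 0 of 161 and 0 of 280, and at 12 or more 0 of 129 and 0 of 193. The 60 bright rows of RefSeq type rRNA with 1 symbol had a median of -0.1935. That was also the lower quartile of named rows at 12 or more, so the rRNA rows are part of the wide range there.

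**Figure D5:**
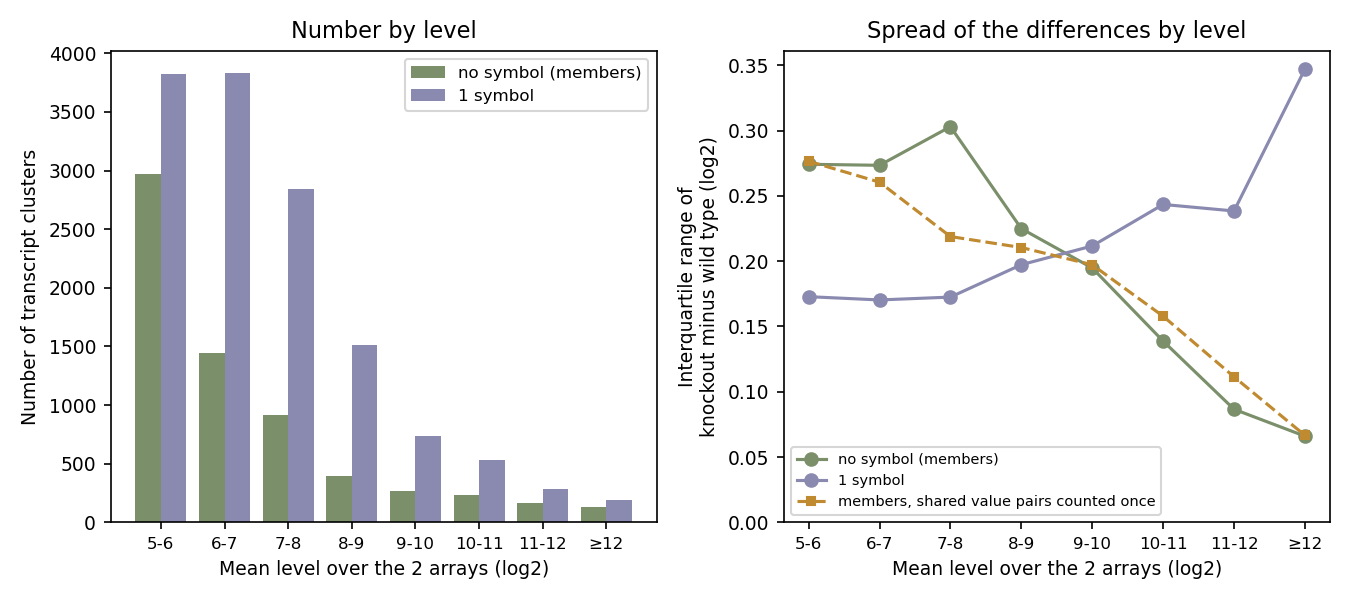
Left, number of members and of clusters with 1 symbol in bins of the mean level (log2). Right, interquartile range of the difference between the arrays (log2) in the same bins, with members whose 2 values are shared counted once as the dashed line. The range of the members was 0.274 at a level of 5 to 6 and 0.0660 at 12 or more. That of clusters with 1 symbol, whose repeated values were not counted once, was 0.173 and 0.347.

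At the top of the scale, 129 members had a mean of 12 or more, and 102 of them were lower in the knockout array with a median of -0.04. After quantile normalization 71 of the 129 were lower, with a median of -0.016, and after loess centring 103 were, with a median of -0.041. The 10 brightest members had means of 13.34 to 13.62 and differences of -0.08 to 0.06. They were TC0900002348 and TC0400001746, which had the same pair of values (13.59 and 13.65), TC1200001864, TC1200000561, TC1300001428, TC1100003794, TC1600000133, TSUnmapped00000096, TC1500000918 and TC0200002613. At 13 or more there were 22 members beside 6 clusters with 1 symbol and 2 with several, so the brightest rows of the array were mostly unnamed ones.

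Many members did not carry a value of their own. Exactly the same pair of values was shared with another row by 488 members (7.50%), beside 3.08% of all rows, and 482 of them shared it with another member, in 87 groups. Of the 87 groups, 54 spanned 2 or more chromosomes. The largest held 63 members on 17 chromosomes and unplaced scaffolds, all going from 6.96 to 7.27. The next held 35 members at 6.54 and 6.76 and 30 members at 6.90 and 7.32. Of the 482 members, 369 were higher and 113 lower, with a median difference of 0.18, beside 0.02 for the 6025 other members. After quantile normalization 335 of the 482 were higher. Rows that share values are not separate measurements, and their shared differences weigh on the medians. Between levels of 7 and 8, where 202 of 918 members shared values, the median difference was 0.08 and became 0.03 with each pair of values counted once, and the interquartile range went from 0.303 to 0.219. None of the 30 members past 2-fold shared its pair of values.

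Only 6 members shared their values with rows that carry 1 symbol. TC1200000452 (11.64 and 11.34) had the values of Rnu1a1, a gene of the U1 small nuclear RNA of the spliceosome, and of 6 predicted genes. TC1200000429 (10.71 and 10.59) had those of a group of 50 rows that includes Rnu6, a gene of the U6 small nuclear RNA. The other four shared theirs with predicted genes only, among them Gm3699 and Gm23647. Identical values on both arrays, a difference of exactly 0, were found in 73 members (1.12%) and in 4.45% of all rows.

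For comparison with noncoding RNAs that have a name, 34 of a list of 62 long noncoding RNA genes were measured in single-symbol rows, 25 of them with a mean of 5 or more. Mir143hg and Carmn are the same row. None differed by 2-fold, 17 genes were higher and 15 lower, and the median was 0.00. Of the 33 rows, 11 were higher and 22 lower after quantile normalization, so the list had no fixed direction. The highest differences were those of Snhg5 (6.84 and 7.33), Snhg18 (7.62 and 8.08), Ftx (0.16), Snhg17 (0.15) and Snhg6 (0.11), and the lowest those of Mir100hg (-0.23), Peg13 (-0.22), Tsix (-0.15), Bvht (-0.13) and Snhg14 (-0.10). Snhg5 and Snhg18 host small nucleolar RNAs in their introns. The brightest rows of the list were Rn7sk (13.37 and 13.33), Rmrp (12.20 and 12.21), Malat1 (12.22 and 12.16), Rpph1 (12.18 and 12.14) and Neat1 (9.11 and 9.20). Over all 239 rows of RefSeq type lncRNA at a mean of 5 or more, the interquartile range of the difference was 0.219, beside 0.254 for the members. No lncRNA row was past 2-fold, and with 239 rows a share like the 0.461% of the members could not be told from 0. Of the small RNA types with a name, 50 of 57 snoRNAs were lower with a median of -0.24, 27 of 28 snRNAs with a median of -0.14 and 99 of 180 miRNAs with a median of -0.03, beside 40.5% of all clusters with a mean of 5 or more. The first and second of these counts were 51 and 27 after quantile normalization. The 10205 protein-coding rows had a median of 0.04.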

How the data were processed

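Total RNA of 2 samples was measured on 1 array each. Values per transcript cluster were deposited by the authors as log2, after RMA in Partek according to the submitters' processing notes; versions, the arrays normalized together and the genome build of the array design are not given in the sources used here. RMA makes arrays alike in distribution and compresses differences of dim rows. No label states the scale; values from 1.74 to 13.65 are taken as log2. Single-symbol rows (30604) were named through the platform annotation and updated by Entrez ID with RefSeq GRCm38.p6 (22815 matched, 827 renamed). No row without a symbol is listed there under another identifier.

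Differences are knockout minus wild type, with no further normalization. A run is a stretch of neighbouring rows of 1 chromosome that are all members. Flanking genes are the nearest rows with exactly 1 symbol. Members named are all those past 2-fold, the 10 brightest, 3 on each side of the limit, and the 3 longest and 3 most different runs, with their flanking genes; others are said to be chosen later. The identifiers are printed without their common ending. The members and gene lists were chosen with earlier results of these data known. Alternatives were other level limits, median, quantile and loess (span 0.3) centring, other folds and other run and neighbour rules. Scripts used Python 3.11.15, numpy 2.4.6, pandas 2.3.3, scipy 1.17.1, statsmodels 0.14.6 and matplotlib 3.10.9 and were tested on simulated data. With 1 array per group, the number of arrays limits the precision.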

Additional observations from a re-analysis of the deposited data

How the results depend on the processing

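The level limit set the counts. With a limit of 4, members numbered 12220 (36.8% of clusters without a symbol), 13 were 2-fold lower, the median difference was 0.015, and there were 727 runs of 3 or more, 47.3% of members in runs of 2 or more and 196 members with identical values. With a limit of 6 these were 3540 (10.7%), 3 lower, 85 runs, 23.3% and 23, and 11 members past 1.5-fold had a like flanking gene. Asking for 5 on the brighter array gave 20.7% and 34.4% in runs, and on both arrays 18.5%, with 17 members 2-fold higher and 4 lower. The median of the members was -0.0021 after quantile normalization (reversed), 0.0018 after loess centring and 0.017 with shared value pairs counted once, and 8 and 11 of 22 chromosome medians were above 0 after quantile normalization and loess centring. At 1.5-fold, 117 members were higher and 54 lower, and at 3-fold 2 and 1. Allowing 1 other row inside a run gave 377 runs and 47.1% of members. All other values of these results stayed within 1.5 times or their counting interval. Of 60 recomputed differences of the 30 members past 2-fold, under quantile normalization and loess centring (applied to them after seeing the data), 59 stayed past it and none changed sign; TC1600000747 was at 0.98 after loess centring. Median centring moves no value, since the median of all clusters was 0. No paired analysis was possible because each group has 1 array. The number of arrays limits the precision, and 9 of the 30 members past 2-fold had a value below 5 on one array.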

Other observations

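Among members that share values, groups at different levels carried the same difference. A difference of 0.42724 was held by 59 members in 3 pairs of values, 0.30672 by 66 members in 2 pairs, and 0.22418 by 45 members in 2 pairs. No explanation was tested.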
